A study of Mus musculus with 3 samples.

Results

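The 10 genes described here belong to the bone morphogenetic protein (BMP) pathway. They were chosen by their symbols from the 31054 features of the count matrices, where all 10 were found. Bmp2, Bmp4, Bmp5 and Bmp7 are ligands, Chrd, Nog, Fst and Bmper are secreted proteins that bind ligands of this family, and Smad6 and Id1 respond to the signal. RNA of single cells was measured in 3 wildtype mouse embryos (C57BL/6 x 129 SvEv, male by genotyping, embryonic day 8), with 1 droplet library of 3′ ends per embryo. Their stage is 0 to 1 somite by the protocol and 0 to 2 somites by the stage label. Extraembryonic tissue was dissected away and the rest of each embryo was dissociated whole, so every class of cells below comes from the same 3 animals. No other genotype or treatment is among these 3 libraries. After quality control (QC) there were 21595 cells with 191843539, 144790573 and 165506028 unique molecular identifiers (UMIs, each 1 captured RNA molecule) in embryos 1, 2 and 3, and pairs of libraries shared 18 to 22 cell barcodes.

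BMP ligands bring together transmembrane kinases, which phosphorylate SMAD proteins that enter the nucleus and switch on targets such as the Id genes. Chordin (Chrd) and noggin (Nog) hold BMPs away from their receptors, follistatin (Fst) does so for activin and for some BMPs, and Bmper binds BMPs outside the cell. The node and the axial mesoderm that leaves it are known sources of Chrd and Nog, and in the mouse the node also serves as the left–right organizer (LRO), a ciliated pit whose rim cells express Nodal and its inhibitor Dand5.

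Cells were put in 15 classes by the UMIs of marker genes, none of them a member of the list, and a class is called "-like" because it rests on those markers. This placed 14142 cells, or 65.5% of the QC cells. The LRO-like class held 225 cells (66, 69 and 90 in embryos 1, 2 and 3). Its ciliary marker Pifo had a UMI in 98.2% of these cells against 3.64% of all other QC cells, and Noto, a transcription factor of the node, in 83.1% against 0.501%. Both genes are among the markers that assigned the class, so these shares describe the assignment and do not test it. The axial-mesoderm-like class held 104 cells (29, 55 and 20), each with a UMI of Shh and at most 1 of the LRO markers. Pifo had a UMI in 18.3% of them and Noto in 14.4%. Levels are given as CPM, the UMIs of a gene per 1000000 UMIs summed over a class in an embryo, as each embryo's value or as mean ± SD over 3 embryos. UMIs of 3′ ends carry no correction for length, so levels were compared between classes for a gene and not between genes.

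The members are protein-coding genes annotated on GRCm38. The ligands are Bmp2 (ENSMUSG00000027358) at chr2:133552159-133562885 on the + strand, Bmp4 (ENSMUSG00000021835) at chr14:46383520-46390669 on the − strand, Bmp5 (ENSMUSG00000032179) at chr9:75775364-75900310 on the + strand and Bmp7 (ENSMUSG00000008999) at chr2:172868012-172940321 on the − strand. The binding proteins are Chrd (ENSMUSG00000006958) at chr16:20733127-20742384 on the + strand, Nog (ENSMUSG00000048616) at chr11:89300638-89302332 on the − strand, Fst (ENSMUSG00000021765) at chr13:114452290-114458951 on the − strand and Bmper (ENSMUSG00000031963) at chr9:23223076-23485200 on the + strand. The responding genes are Smad6 (ENSMUSG00000036867) at chr9:63953076-64022059 on the − strand and Id1 (ENSMUSG00000042745) at chr2:152736251-152737410 on the + strand. RefSeq windows at the start site (GRCm38.p6) matched 5 of the 10 members by symbol. The 250 bases before the start are shown for 3 of them, Chrd, Bmp4 and Smad6, because these genes had their highest levels in different classes, LRO-like, mesenchyme-like and allantois-like. Capitals mark GTCT or its reverse complement AGAC, a SMAD-binding box, and GGCGCC, a GC-rich SMAD element, each searched on both strands.
Chrd, chr16:20732877-20733126, + strand: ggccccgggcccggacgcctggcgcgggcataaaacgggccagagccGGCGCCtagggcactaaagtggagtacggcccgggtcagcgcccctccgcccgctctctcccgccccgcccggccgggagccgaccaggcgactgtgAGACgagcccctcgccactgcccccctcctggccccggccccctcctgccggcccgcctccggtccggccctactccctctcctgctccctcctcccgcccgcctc
Bmp4, chr14:46390670-46390919, − strand: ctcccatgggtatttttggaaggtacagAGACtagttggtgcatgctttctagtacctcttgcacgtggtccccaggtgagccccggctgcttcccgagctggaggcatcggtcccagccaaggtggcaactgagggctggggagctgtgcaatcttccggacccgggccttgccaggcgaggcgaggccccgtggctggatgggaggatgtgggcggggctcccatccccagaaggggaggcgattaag
Smad6, chr9:64022060-64022309, − strand: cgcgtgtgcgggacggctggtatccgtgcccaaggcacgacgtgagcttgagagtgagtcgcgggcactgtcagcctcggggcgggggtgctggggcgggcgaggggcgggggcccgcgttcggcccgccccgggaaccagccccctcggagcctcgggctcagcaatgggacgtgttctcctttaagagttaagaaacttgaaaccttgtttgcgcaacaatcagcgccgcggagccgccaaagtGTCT

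Of the 5 windows, that of Chrd alone held GGCGCC, 203 bases before the start site, and 9.59% of all 32851 RefSeq windows of this length held it. Each of the 5 held GTCT or AGAC, as did 82.9% of all windows. Bmp4 had 3 matches to CANNTG, the E-box of helix-loop-helix proteins, a motif in 66.2% of windows, and the other 4 members had none. None of the 5 held TGTTTAC, a forkhead motif (3.17% of windows), or TCACACC, a T-box motif (3.33%). The Chrd window was 78.0% G or C and the Bmp5 window 42.8%. No match overlapped another. A match describes letters in 1 window per gene and does not show binding.

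Among the ligands, Bmp2 was highest in vessel-forming cells, Bmp4 in mesenchyme and allantois, Bmp5 in cardiac mesoderm and Bmp7 in the allantois. Bmp2, which is needed for heart formation, was at 172, 117 and 140.5 CPM in endothelium-like cells of embryos 1, 2 and 3. Cardiac-mesoderm-like cells had 75.1, 59.1 and 58.3 CPM and mesenchyme-like cells 44.4, 45.3 and 46.7 CPM. The ranges of these 3 classes did not overlap. Endothelium-like cells were 4.20% of the QC cells and held 26.5% of all Bmp2 UMIs. At the other end Bmp2 was at 1.43 ± 0.591 CPM in caudal-epiblast-like cells and at 2.95 ± 0.973 CPM in neural-plate-like cells.

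Bmp4, which is needed for the allantois, germ cells and posterior mesoderm, was at 175, 176 and 164 CPM in mesenchyme-like cells and at 147, 156 and 171 CPM in allantois-like cells. These ranges overlapped, and both lay above every other class. The paper named its mesenchyme cells by Bmp4 and Ahnak, so high Bmp4 is part of how it defines that population. Here Ahnak was a marker of the mesenchyme-like class and Bmp4 was not. A UMI of Bmp4 was found in 90.9% of mesenchyme-like and 84.3% of allantois-like cells (mean over embryos), or in 56.3% and 52.5% after each cell was thinned to 5000 UMIs. Erythroid-like cells, used as the background of free RNA, had one in 5.16% (2.16% thinned), at a median of 15284 UMIs per cell against 23852.5 in mesenchyme-like and 14553.5 in allantois-like cells. Germ-cell-like cells had 70.3, 67.4 and 56.9 CPM, a range that overlapped that of cardiac-mesoderm-like cells (47.8, 57.7 and 54.3), from sums of 15 to 45 cells.

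Bmp5, a ligand close in sequence to Bmp7, was at 64.8, 40.4 and 46.2 CPM in cardiac-mesoderm-like cells and at 28.8, 30.5 and 30.5 CPM in mesenchyme-like cells. Every other class was at 10 CPM or less in each embryo. Bmp7 was more even across the classes. It was at 41.1, 38.9 and 39.3 CPM in allantois-like cells, above every other class, and from extraembryonic-endoderm-like (27.7 ± 3.74) down to surface-ectoderm-like cells (10.7 ± 1.30) each class overlapped in range with the next. LRO-like (26.3 ± 3.30) and axial-mesoderm-like cells (25.6 ± 3.76) lay within that run. Erythroid-like cells held 1.89 CPM, the mean of 2 embryos, since embryo 1 had 1 such cell and was left out of the class.

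**Figure D1:**
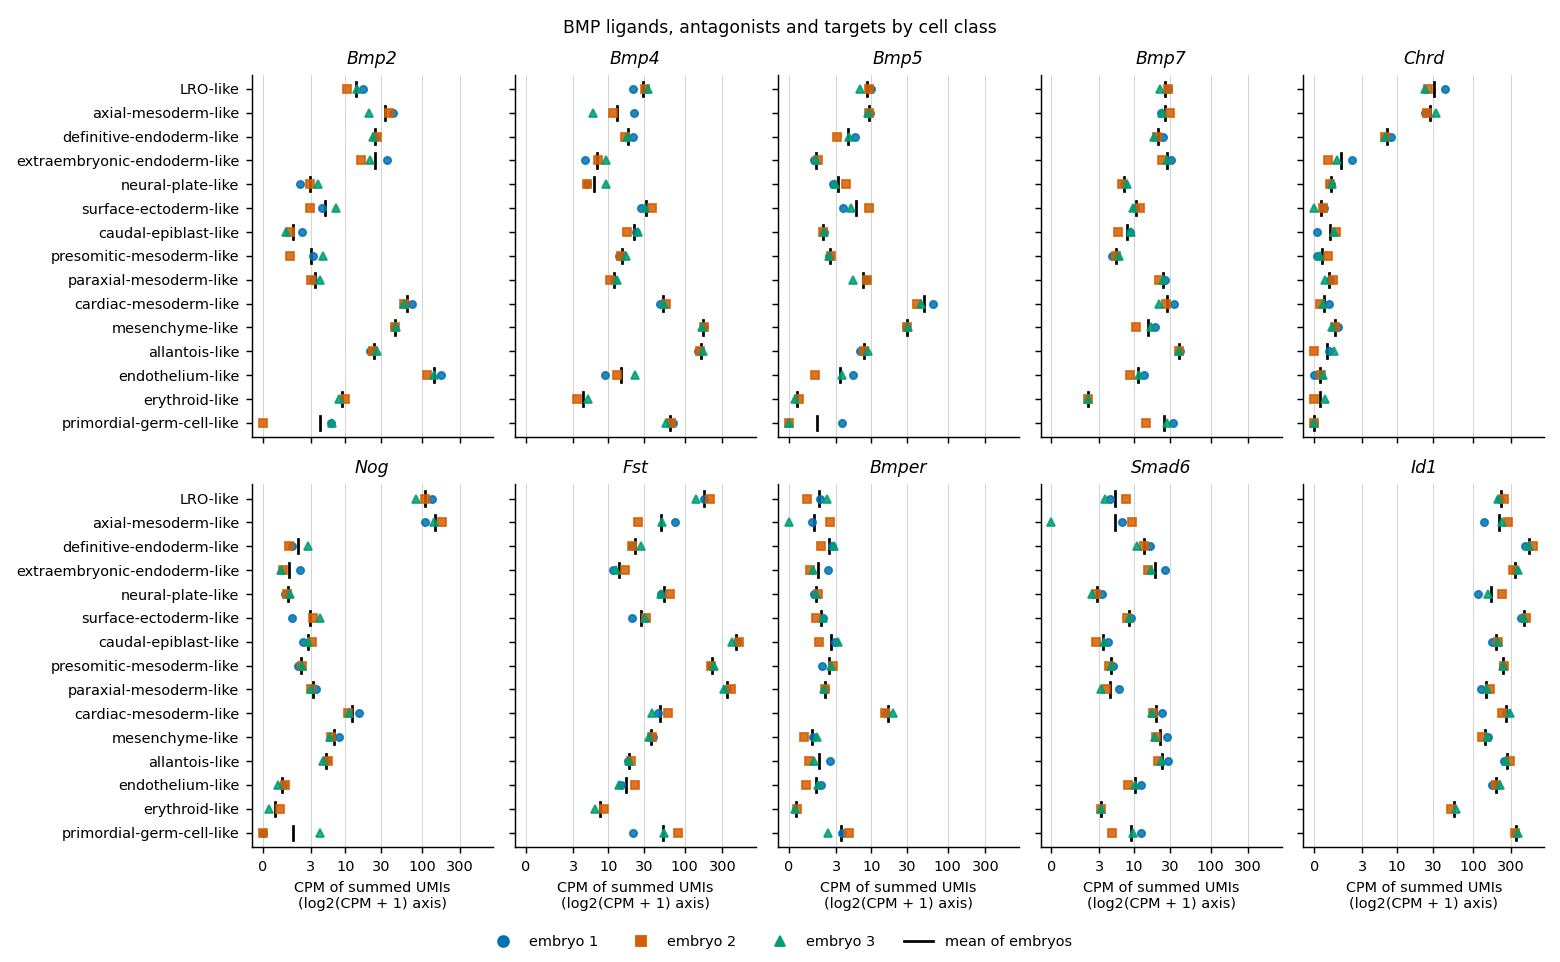
CPM of the 10 members (horizontal, log2(CPM + 1) axis) in 15 cell classes (vertical), with 1 symbol per embryo and a black bar at the mean. Nog and Chrd stand high in the LRO-like and axial-mesoderm-like rows, Bmp2 in the endothelium-like row, and Bmp4 in the mesenchyme-like and allantois-like rows.

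The antagonists did not share a pattern: Nog and Chrd were highest in LRO-like and axial-mesoderm-like cells, Fst in caudal epiblast and Bmper in cardiac mesoderm. Nog was at 110.4, 181 and 143 CPM in axial-mesoderm-like and at 134, 109.9 and 83.8 CPM in LRO-like cells. The 2 ranges overlapped, and the next class, cardiac mesoderm, was at 15.1, 11.0 and 11.3 CPM. A UMI of Nog was found in 71.1% of LRO-like (40.8% thinned) and 69.4% of axial-mesoderm-like cells (49.2% thinned), against 0.687% of erythroid-like cells (0.458% thinned), with median depths of 22159, 16300 and 15284 UMIs per cell. LRO-like cells were 1.04% of QC cells and held 23.5% of all Nog UMIs, and axial-mesoderm-like cells were 0.482% and held 12.0%. A further 31.8% of Nog UMIs lay in unassigned cells, which were 34.5% of the QC cells.

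Chrd followed Nog in these classes. It was at 43.5, 26.2 and 23.7 CPM in LRO-like and 24.0, 25.3 and 32.8 CPM in axial-mesoderm-like cells, ranges that overlapped. Definitive-endoderm-like cells came next at 8.19, 6.80 and 6.70 CPM, below every LRO-like and axial value. In the other 12 classes the mean was 1.13 CPM or less, and no Chrd UMI was seen in 89 germ-cell-like cells, which allows a share of up to 3.37% of cells with a UMI by counting error alone. Definitive-endoderm-like cells, 5.07% of the QC cells, held 23.5% of Chrd UMIs, and LRO-like cells held 23.0%.

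Fst was at 454, 490.1 and 398 CPM in caudal-epiblast-like, 342, 387 and 310.3 in paraxial-mesoderm-like and 217, 214 and 231 in presomitic-mesoderm-like cells. These 3 ranges did not overlap. LRO-like cells followed at 174, 208 and 138 CPM, below every presomitic value and above every other class, and axial-mesoderm-like cells had 74.9, 25.3 and 50.7 CPM. Bmper was at 15.8, 15.3 and 19.6 CPM in cardiac-mesoderm-like cells and had a mean of 3.57 CPM or less in every other class.

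Single LRO-like cells often held UMIs of several antagonists. Of 225 LRO-like cells, 52 had a UMI of each of Chrd, Nog and Fst, 99 of 2 of them, 68 of 1 and 6 of none. Of 104 axial-mesoderm-like cells, 10 had all 3, 35 had 2, 40 had 1 and 19 had none. Median depth was 22159 UMIs per LRO-like and 16300 per axial-mesoderm-like cell, and its part in these counts was not tested. In caudal-epiblast-like cells 961 of 1056 cells had 1 of the 3 genes and 1 cell had all 3. Nog reached 16 UMIs in a single LRO-like cell, and 48 cells with at least 5 UMIs carried 374 of the 628 Nog UMIs. Of the 169 Bmp4 UMIs of the same class, 95 lay in 12 cells with at least 5 UMIs.

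The responding genes had unlike patterns. Smad6, an inhibitory SMAD that BMP signalling is known to induce, was at 28.1, 21.1 and 22.7 CPM in allantois-like cells. Mesenchyme-like (22.0 ± 4.55), cardiac-mesoderm-like (19.7 ± 3.59) and extraembryonic-endoderm-like cells (19.4 ± 5.88) followed, each overlapping the next, and neural-plate-like cells had the lowest mean at 2.71 ± 0.531 CPM. Id1, a helix-loop-helix protein that blocks partners needed for differentiation, was at 445, 574 and 506 CPM in definitive-endoderm-like and 405, 463 and 439 CPM in surface-ectoderm-like cells, with overlapping ranges. Mesenchyme-like cells, where Bmp4 was highest, held 142 ± 13.0 CPM of Id1, and only erythroid-like cells had a lower mean, 55.7 CPM.

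Summed over the 4 ligands, the level was 263 ± 5.10 CPM in mesenchyme-like and 229.9 ± 15.3 CPM in allantois-like cells, against 77.0, 78.7 and 77.7 CPM in LRO-like cells of embryos 1, 2 and 3 and 33.3 ± 5.57 CPM in caudal-epiblast-like cells. The sum of Chrd, Nog and Fst was lower in the first pair of classes, at 45.1 ± 3.17 and 24.9 ± 0.711 CPM, than in LRO-like cells, at 351, 344 and 246 CPM, and in caudal-epiblast-like cells, at 450.5 ± 46.6 CPM, nearly all of the last from Fst. The ligand sum and the antagonist sum are sums over different genes, so each was compared between classes and not with the other. Across the means of 14 classes, the ligand sum had a Pearson r of 0.81 with Smad6 (Spearman rho 0.84) and of −0.01 with Id1 (rho 0.04). Chrd and Nog had an r of 0.81 and a rho of 0.40. Erythroid-like cells, with the lowest ligand sum (15.4 CPM) and the lowest Id1 mean, were left out of these coefficients. Their effect on the coefficients was not tested. The classes share libraries, so these coefficients are descriptions.

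**Figure D2:**
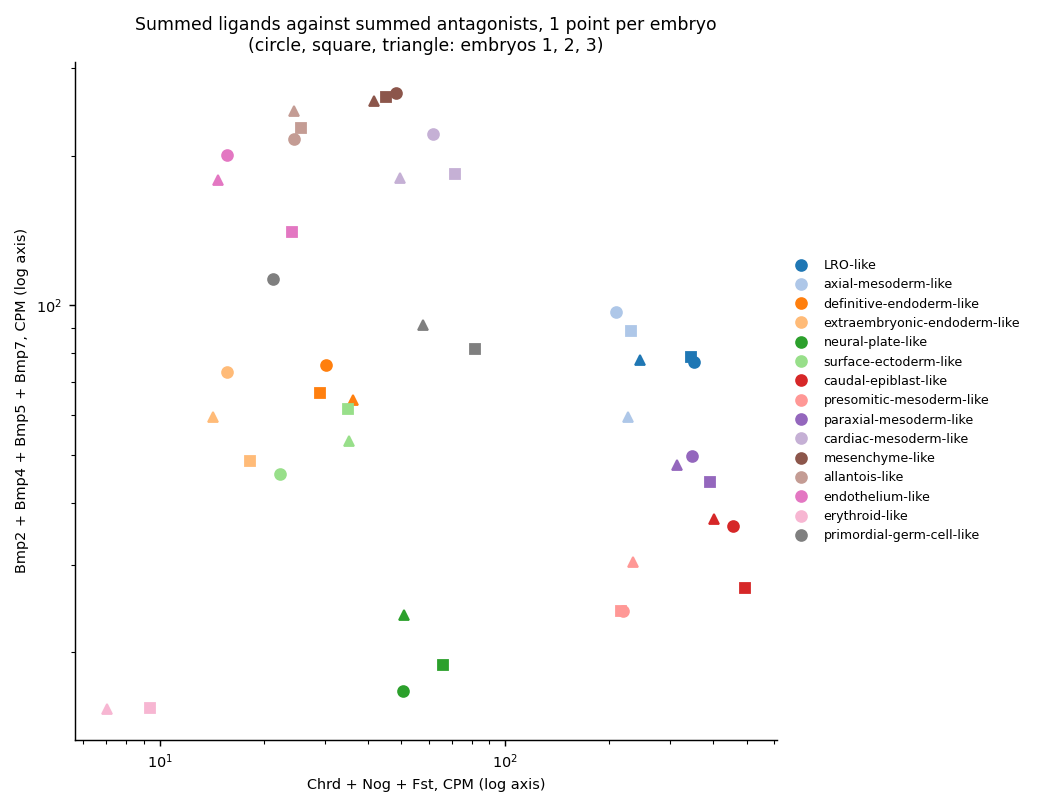
Sum of the 4 ligands (vertical) and sum of Chrd, Nog and Fst (horizontal), both in CPM on log axes, with 1 symbol per embryo and class. Each axis compares classes for its own sum: the mesenchyme-like points are the highest and the caudal-epiblast-like points the farthest right.

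Over the 44 sums of a class in an embryo, the profile most like that of Nog among 8012 genes was that of Slit2, a secreted guidance protein (Pearson r of log2(CPM + 1) 0.89), followed by Isg20 (0.87) and Shh (0.87). For Chrd the nearest were Shh (0.96), Vtn (0.94) and Mnx1 (0.94). Shh was used to define the axial class. For Bmp4 they were Hand1 (0.92), Spin2c (0.88) and Ryk (0.84), and for Id1 Plekhg3 (0.83), Nr2f6 (0.81) and Ebp (0.77). The sums share libraries and differ in depth, so these r values rank genes and carry no test.

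LRO-like cells were compared first with axial-mesoderm-like cells. Fst was higher in LRO-like cells, at 174, 208 and 138 against 74.9, 25.3 and 50.7 CPM, a log2 fold change of 1.72 ± 0.25 (SE) with an adjusted p of 8.73e-05 in edgeR's quasi-likelihood test, which gives all adjusted p below. Bmp2 was lower, at 17.5, 10.6 and 14.3 against 42.2, 38.0 and 20.9 CPM (−1.36 ± 0.28, adjusted p = 0.0024). Neither pair of ranges overlapped. These were 2 of the 8 members tested, against a background of 9.92% of all 8748 genes tested. The axial sums of both rest on few cells: the top 5 cells held 73 of the 117 Fst UMIs and 45 of the 84 Bmp2 UMIs. The Bmp2 call was lost without embryo 2 (−1.16, adjusted p = 0.11). Nog (−0.44 ± 0.19, adjusted p = 0.19), Chrd (0.22 ± 0.28, 0.76) and Bmp4 (0.89 ± 0.33, 0.12) did not pass. Bmp5 (−0.14 ± 0.38), Bmp7 (−0.02 ± 0.24) and Id1 (0.04 ± 0.19) did not pass either, and Bmper and Smad6 had too few UMIs to be tested. Without embryo 1, Nog passed as lower in LRO-like cells (−0.81, adjusted p = 0.0068) and Bmp4 as higher (1.70, 0.010), and both also passed with classes assigned on thinned cells (−0.55, 0.049, and 1.27, 0.044). Bmp4 passed with no filter on low counts as well (0.90, 0.039).

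The axial-mesoderm-like class was itself mixed. Gsc, a marker of the prechordal plate at the front of the axial mesoderm, had a UMI in 41 of the 104 cells (12, 22 and 7), and T, a marker of the notochord, in 21 of these 41 and in 62 of the 63 without Gsc. Gsc and T were also markers of the class, with Shh, Foxa2 and Sox9, and a cell needed UMIs of at least 3 markers. A cell without Gsc thus needed more of the others, so part of the T contrast follows from that rule. The split by Gsc was made after values were seen, and is a description with no test. Bmp2 was at 89.6, 74.7 and 60.8 CPM in axial cells with Gsc and at 11.1, 11.8 and 0 CPM in those without. Chrd ran the other way, at 14.5, 2.77 and 8.69 CPM with Gsc and 30.2, 41.4 and 45.5 CPM without. In each embryo the Bmp2 level was higher in the cells with Gsc and the Chrd level in the rest. Id1 was at 159.8, 481 and 356 CPM with Gsc and 122, 130.1 and 159 CPM without, ranges that nearly touch. Bmp5 (4.63 ± 3.52 against 12.4 ± 2.88) and Bmp7 (20.4 ± 2.65 against 28.9 ± 5.99 CPM) were lower with Gsc, without overlap. Counts were low, with 1 UMI of Bmp5 per embryo in the cells with Gsc. In embryo 3 the Bmp5 levels of 8.69 CPM with Gsc and 9.09 CPM without rest on 1 and 2 UMIs. Chrd had 6, 1 and 1 UMIs with Gsc, and in embryo 3 Bmp2 had 7 UMIs in 2 cells and Bmp7 had 2 UMIs. In all, 5 of the 8 members with at least 20 UMIs in the class had ranges that did not overlap, against a background of 13.1% of 8010 genes. Nog overlapped, at 75.1, 60.8 and 182 against 134, 266 and 123 CPM. Median depth was 22319.5, 11854.5 and 14752 UMIs per cell with Gsc and 31572, 13921 and 9098 without, and its part in these values was not tested.

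With the Gsc cells left out of the axial class, an alternative chosen after seeing the data, the Bmp2 call was lost and its sign turned (0.57 ± 0.48, adjusted p = 0.68). Fst was still higher in LRO-like cells (1.48 ± 0.25, adjusted p = 0.00070), and Id1 came out as higher there (0.70 ± 0.16, adjusted p = 0.0090). The cells left out had already been seen to have more Id1 than the other axial cells (mean 332 against 137 CPM) and more Bmp2 (75.0 against 7.65 CPM). Leaving them out therefore lowers both axial levels, so the shifts of Id1 and Bmp2 follow from the choice and test nothing further. Nog (−0.76 ± 0.24, adjusted p = 0.073), Chrd (−0.30 ± 0.30, 0.74) and Bmp4 (1.08 ± 0.36, 0.095) did not pass.

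**Figure D3:**
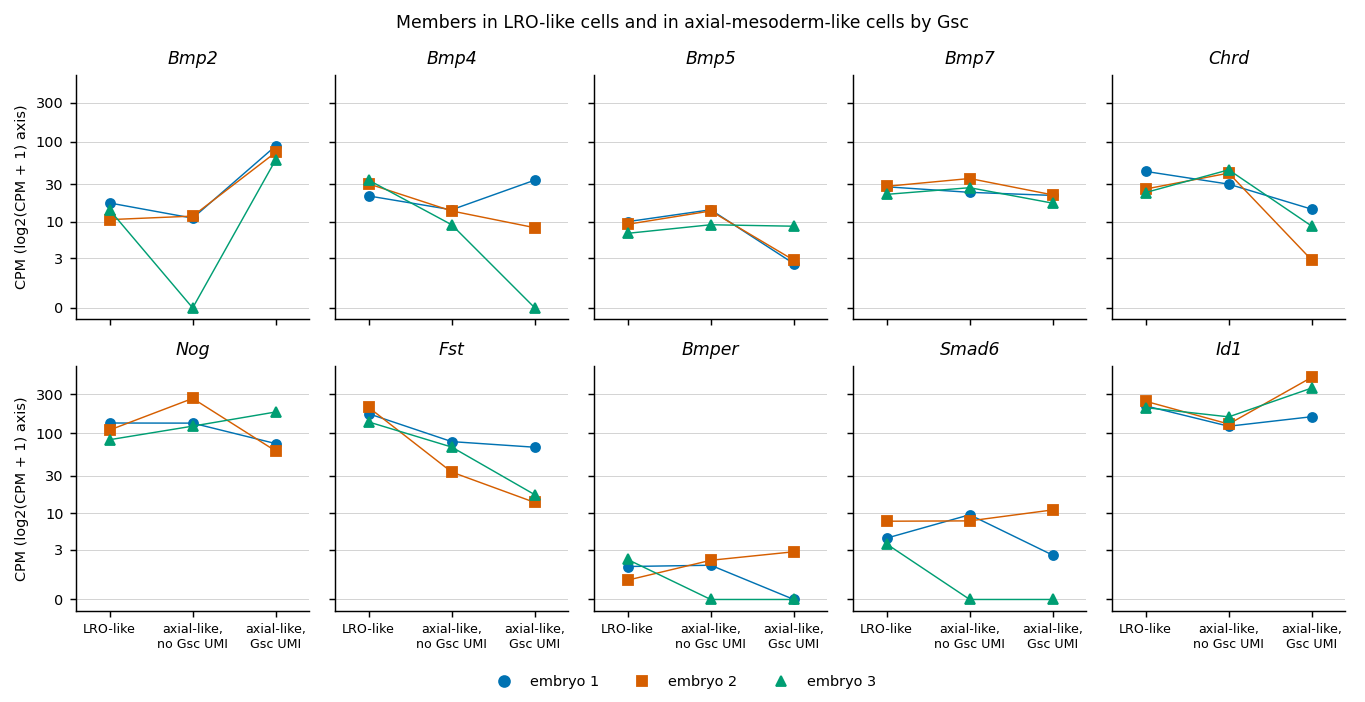
CPM of the members (vertical, log2(CPM + 1) axis) for LRO-like cells and for the axial-mesoderm-like class without and with a UMI of Gsc, with 1 line per embryo. Bmp2 is higher and Chrd lower in the axial cells with Gsc than in those without, in all 3 embryos.

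Of 46 other genes of the BMP pathway, 18 were tested in the same comparison, and 2 were lower and 0 higher in LRO-like cells. This is near the background of 9.92% of all 8748 genes tested. Cer1, a secreted antagonist of BMP and Nodal, was at 6.74 against 153 CPM (−4.49 ± 0.34, adjusted p = 3.39e-08), and Id3, a relative of Id1, at 254 against 494 CPM (−1.01 ± 0.23, adjusted p = 0.0066). Bambi, a decoy receptor, did not pass (−0.37 ± 0.24, adjusted p = 0.45), and Msx2 had too few UMIs to be tested. The Id3 call was lost without embryo 2 (−0.75, adjusted p = 0.21), with Gsc cells left out of the axial class (−0.48, 0.38) and with DESeq2 (−0.98, 0.23), and in each of these fits Cer1 was still lower.

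Against all other QC cells, Nog and Chrd had the largest differences among the members. The make-up of the other cells differed between embryos 1, 2 and 3. They included 274, 1205 and 946 extraembryonic-endoderm-like and 1, 868 and 296 erythroid-like cells, and the part of this in the values was not tested. Nog was at 134, 109.9 and 83.8 against 4.31, 4.34 and 3.69 CPM (4.62 ± 0.16, adjusted p = 3.37e-08). Chrd was at 43.5, 26.2 and 23.7 against 1.56, 1.02 and 1.02 CPM (4.59 ± 0.27, adjusted p = 1.11e-06). Both calls held without any 1 embryo. Fst (0.54 ± 0.15, adjusted p = 0.034) and Bmp7 (0.57 ± 0.13, 0.015) also passed as higher. Smad6 was lower, at 4.50, 7.80 and 3.68 against 10.4, 9.42 and 9.49 CPM (−1.05 ± 0.25, adjusted p = 0.017). Its LRO-like values rest on 29 UMIs, and Smad6 had too few UMIs to be tested against axial-mesoderm-like cells. Nog, Chrd, Fst, Bmp7 and Smad6 were 5 of the 10 members tested, against a background of 18.8% of 15726 genes (2964 called, 4852 with the embryo as a block). The Bmp7 call was lost without embryo 1, 2 or 3 (0.55, 0.48 and 0.67, adjusted p 0.062, 0.15 and 0.069). The Fst call was lost without embryo 2 (0.34, adjusted p = 0.29) or 3 (0.58, 0.082), and the Smad6 call without embryo 1 (−0.92, 0.083) or 3 (−0.86, 0.17). Bmp2 (−0.56 ± 0.18, adjusted p = 0.054) and Bmp4 (−0.56 ± 0.20, 0.079) did not pass, but did as lower with the embryo as a block (0.0056 and 8.39e-05) and with no filter on low counts (0.037 and 0.033). Bmp5 (−0.06 ± 0.20), Bmper (−0.84 ± 0.41) and Id1 (−0.14 ± 0.11, adjusted p = 0.38) did not pass.

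Among the other pathway genes 41 were tested against all other QC cells, and 3 were higher and 7 lower in LRO-like cells. The background was 18.8% of 15726 genes. Targets made up 4 of the 7, with the homeobox gene Msx2 at 10.5 against 22.2 CPM (−1.22 ± 0.22, adjusted p = 0.0033) and Id3 at 254 against 391 CPM (−0.71 ± 0.21, 0.039). Eng, a co-receptor of vessels, was lower (−1.90 ± 0.42, adjusted p = 0.011), on 7 UMIs in LRO-like cells. Sostdc1, a secreted antagonist, was higher (3.61 ± 0.59, adjusted p = 0.0020), on 12 UMIs. Smad9, which carries the signal to the nucleus, passed as lower with 2 UMIs there, too few for a fold. Cer1 (adjusted p = 0.66) and Bambi (0.10) did not pass. These counts moved when an embryo was left out: 1 gene was higher and 3 were lower without embryo 2, 0 and 2 without embryo 3, and 5 and 9 with the embryo as a block, and the lower targets numbered 2 without embryo 2 and 1 without embryo 3. The Id3 call was lost without embryo 2 (adjusted p = 0.17) or 3 (0.063) and with classes assigned on thinned cells (0.051). The Smad9 call was lost in the same fits (0.10, 0.14 and 0.056). Eng (adjusted p = 0.13) and Sostdc1 (0.061) were lost without embryo 3, and Msx2 passed without any 1 embryo.

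Within the LRO-like class, 135 cells had a UMI of Nodal or Dand5 (52, 38 and 45) and 90 had neither (14, 31 and 45). Id1 was at 243, 269 and 268 CPM in cells with a rim gene and 73.3, 204 and 139.8 CPM in cells without. The values with a rim gene were higher in all 3 embryos, and the ranges did not overlap. Id1 was the only 1 of 9 members with at least 20 UMIs for which this held, and 8.61% of 10821 genes did so, a share near that of the members. In cells thinned to 5000 UMIs and then split, Id1 had a UMI in 55.3, 80.0 and 76.7% of cells with a rim gene and 33.3, 45.7 and 36.2% of cells without. Depth moved with the split before thinning, at a median of 28776, 20413.5 and 26095 UMIs with and 19800.5, 12784 and 24275 without. Nog (112 ± 22.0 against 103 ± 29.3 CPM), Fst (181 ± 25.0 against 146 ± 67.8) and Chrd (29.2 ± 5.16 against 45.8 ± 38.0) overlapped between the groups.

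**Figure D4:**
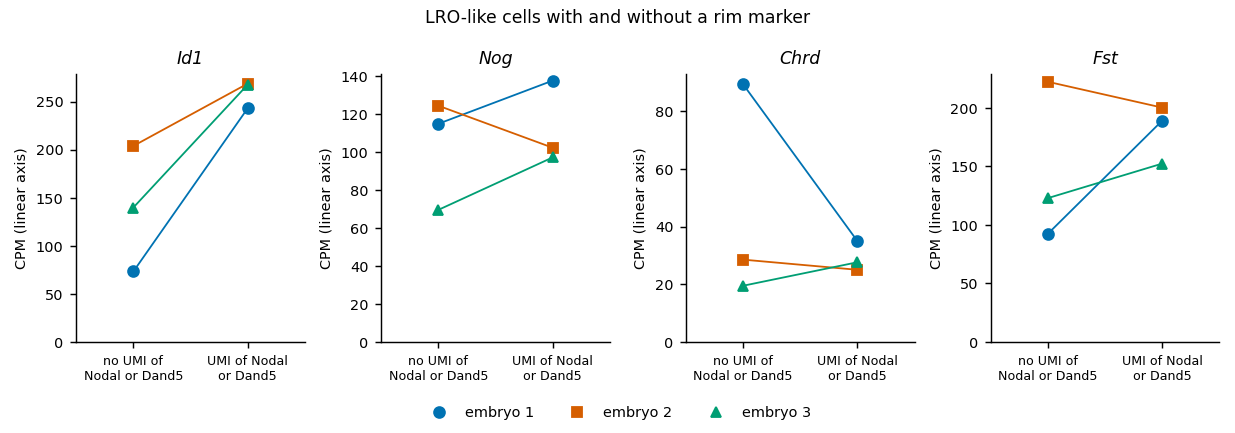
CPM (linear axes) of Id1, Nog, Chrd and Fst in LRO-like cells without and with a UMI of Nodal or Dand5, with 1 line per embryo. Id1 is higher with a rim gene in each embryo, and the ranges of Nog, Chrd and Fst overlap.

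BMP signalling is known to favour surface ectoderm over neural plate. The neural-plate-like markers included Otx2, Six3 and Hesx1, which the paper counts as anterior markers. They had a UMI in 81.5, 58.8 and 63.8% of the class, which need not stand for the whole neural plate. Surface-ectoderm-like cells had more Bmp4, at 27.0, 37.5 and 30.8 against 4.88, 4.89 and 9.29 CPM in neural-plate-like cells (2.35 ± 0.24, adjusted p = 2.06e-05). They had more Smad6, at 9.18, 8.03 and 8.34 against 3.29, 2.62 and 2.24 CPM (1.62 ± 0.22, adjusted p = 0.00022), and more Id1, at 405, 463 and 439 against 114, 229 and 154 CPM (1.40 ± 0.19, adjusted p = 0.00028). Bmp4, Smad6 and Id1 were each separated without overlap. Bmp7 passed as higher (0.55 ± 0.17, adjusted p = 0.042), a call lost without embryo 1, 2 or 3 (0.59, 0.42 and 0.66) and in 5 other alternatives: DESeq2 (adjusted p = 0.16), no filter on low counts (0.061), 1 fit over all classes (0.052), classes assigned on thinned cells (0.18) and 1 more marker required (0.27). Fst was lower, at 20.6, 31.5 and 31.1 against 49.0, 64.6 and 49.0 CPM (adjusted p = 0.0014). These were 5 of the 8 members tested, against a background of 18.3% of 11581 genes (2115 called, 3995 with the embryo as a block). Bmp2 (0.81 ± 0.36), Bmp5 (0.89 ± 0.34) and Bmper (0.37 ± 0.36) did not pass, but with the block Bmp2 (adjusted p = 0.010) and Bmp5 (0.0036) did as higher, and Bmp5 also with no filter on low counts (0.026). Chrd and Nog had too few UMIs to be tested. In alternatives, Nog passed as higher with no filter (adjusted p = 0.012), without embryo 1 (0.024) and in 1 fit over all classes (0.019). It was not called without embryo 2 or with DESeq2, where 4 of 9 members tested were called. With classes assigned on thinned cells the Smad6 (1.01, adjusted p = 0.17) and Fst (−0.70, 0.051) calls were lost, and Fst also with 1 more marker required (−0.59, 0.062).

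Of 26 other pathway genes, 8 were higher and 4 lower in surface-ectoderm-like cells, and all 5 targets tested were higher. The background was 18.3% of 11581 genes. Msx1 was at 260.2 against 28.0 CPM (3.25 ± 0.19), Msx2 at 47.4 against 5.54 CPM (3.13 ± 0.17), Id4 at 19.8 against 2.28 CPM (3.06 ± 0.22) and Id3 at 594 against 367 CPM (0.69 ± 0.14). Bambi, itself induced by BMP, was at 58.5 against 14.4 CPM (2.02 ± 0.10). Grem1, a secreted antagonist, passed as lower with 2 UMIs in surface-ectoderm-like and 73 in neural-plate-like cells, and Cer1 did not pass (−1.06 ± 0.43, adjusted p = 0.12). Without embryo 3 the counts were 5 higher and 1 lower, with 3 of 5 targets higher and the calls of Id3 (0.72, adjusted p = 0.053) and Grem1 (0.079) lost. Without embryo 2 they were 7 and 2, and with the embryo as a block 10 and 8. With classes assigned on thinned cells 6 were higher and 1 lower, and with 1 more marker 8 and 1. Grem1 had too few UMIs to be tested with either assignment or without embryo 1.

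Allantois-like cells had more of all 4 ligands than presomitic-mesoderm-like cells, and less Fst. Bmp4 was at 147, 156 and 171 against 14.0, 15.1 and 17.5 CPM (3.32 ± 0.12, adjusted p = 4.45e-10), and Bmp7 at 41.1, 38.9 and 39.3 against 4.85, 5.51 and 6.05 CPM (2.85 ± 0.14, 7.47e-09). Bmp2 (2.86 ± 0.25), Bmp5 (1.76 ± 0.23), Smad6 (2.28 ± 0.17) and Nog (1.36 ± 0.26) were higher as well, and none of these 6 pairs of ranges overlapped. Fst was at 18.6, 20.1 and 19.0 against 217, 214 and 231 CPM (−3.57 ± 0.10, adjusted p = 4.86e-11). These were 7 of the 9 members tested, against a background of 32.8% of 11267 genes. Id1 did not pass (0.09 ± 0.09, adjusted p = 0.52), at 242, 293 and 256 against 235, 247 and 238 CPM. Bmper did not pass (−0.67 ± 0.41, adjusted p = 0.23) but did as lower without embryo 1 (−1.41, 0.033), and Chrd had too few UMIs. Of 29 other pathway genes, 13 were higher and 5 lower, with 4 of 5 targets and 5 of 8 receptors among the higher ones. The vessel receptors Eng (4.22 ± 0.34) and Acvrl1 (3.81 ± 0.27), the inhibitors Bambi (3.00 ± 0.18) and Smad7 (2.80 ± 0.13), Msx2 (2.22 ± 0.22) and Id3 (0.57 ± 0.11) were higher, and Cer1 did not pass (−1.06 ± 0.43, adjusted p = 0.080). With the embryo as a block the lower genes numbered 8. The calls of the receptors Bmpr2, Acvr2a and Acvr1 were lost without embryo 3 (adjusted p = 0.090, 0.11 and 0.19). Bmpr2 (0.059) and Acvr2a (0.056) were also lost without embryo 2, and Acvr1 without embryo 1 (0.13). With classes assigned on thinned cells Acvr2a was lost as well (0.21).

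Cardiac-mesoderm-like cells had more Bmp2, Bmp4 and Bmp5, more Bmper and Nog, and less Fst than paraxial-mesoderm-like cells. Bmp2 was at 75.1, 59.1 and 58.3 against 3.53 ± 0.593 CPM (4.24 ± 0.16, adjusted p = 2.35e-08), and Bmper at 15.8, 15.3 and 19.6 against 1.84, 1.91 and 1.80 CPM (3.21 ± 0.19, 9.23e-07). Bmp5 (2.76 ± 0.20), Bmp4 (2.21 ± 0.12), Smad6 (2.12 ± 0.22), Nog (1.95 ± 0.20) and Id1 (0.87 ± 0.12) were higher too. Fst was at 46.0, 60.3 and 38.1 against 342, 387 and 310.3 CPM (−2.79 ± 0.14, adjusted p = 3.18e-07). None of these 8 pairs of ranges overlapped. They were 8 of the 9 members tested, against a background of 15.1% of 11368 genes (1714 called, 3201 with the embryo as a block). Bmp7 did not pass (0.23 ± 0.14, adjusted p = 0.37), and Chrd had too few UMIs. Of 29 other pathway genes 10 were higher and 7 lower, and 5 of the 7 were antagonists or binding proteins. Among these Cer1 was at 2.42 against 43.1 CPM (−4.20 ± 0.32), Nbl1 at 0.756 against 6.71 CPM (−2.98 ± 0.40) and Grem1 at 1.28 against 4.11 CPM (−1.77 ± 0.35). Gdf2, a ligand that acts on vessels (3.65 ± 0.34), Msx2 (1.64 ± 0.14), Bambi (1.54 ± 0.17) and Id3 (0.64 ± 0.09) were higher. Without embryo 3 the counts were 6 higher and 5 lower. Without embryo 1 they were 8 and 4, and the Grem1 call was lost (−1.53, adjusted p = 0.075).

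Endothelium-like cells had more Bmp2 and less Bmp4 than mesenchyme-like cells. Bmp2 was at 172, 117 and 140.5 against 44.4, 45.3 and 46.7 CPM (1.66 ± 0.12, adjusted p = 2.17e-06). Bmp4 was at 8.95, 13.1 and 22.9 against 175, 176 and 164 CPM (−3.49 ± 0.23, adjusted p = 9.60e-07). Bmp5 (−3.03 ± 0.28), Nog (−3.20 ± 0.31), Fst (−1.14 ± 0.18) and Smad6 (−1.06 ± 0.18) were lower, and Id1 was higher (0.46 ± 0.10, adjusted p = 0.0047), a call lost without embryo 2 (0.39, 0.056) or 3 (0.40, 0.062). These were 7 of the 8 members tested, against a background of 35.0% of 11476 genes. Bmp7 did not pass (−0.42 ± 0.22, adjusted p = 0.17) but did as lower with the embryo as a block (−0.44, 0.016), and Chrd and Bmper had too few UMIs, Chrd passing as lower with no filter on low counts (adjusted p = 0.041). Of 33 other pathway genes 9 were higher and 13 lower. Eng (3.80 ± 0.14) and the antagonist Sost (4.45 ± 0.52) were higher, Msx2 (−3.70 ± 0.29) and Bambi (−0.65 ± 0.19) were lower, and Id3 (adjusted p = 0.39) and Cer1 (0.21) did not pass. Without embryo 3 the counts were 5 higher and 9 lower, and the Bambi call was lost without embryo 1 (−0.49, adjusted p = 0.087) or 2 (−0.69, 0.079). Bmp8a, a ligand, had 56 UMIs in endothelium-like and 0 in mesenchyme-like cells. With UMIs pooled over the embryos this is 27.2-fold against a floor of 3 counts in mesenchyme-like cells, a ratio that takes no account of the spread between embryos. Bmp8b is a near-identical copy, and the split of reads between them is uncertain. Gdf2 passed as lower, with 1 UMI in endothelium-like and 75 in mesenchyme-like cells.

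The extraembryonic-endoderm-like class held 2425 cells (274, 1205 and 946 in embryos 1, 2 and 3) although extraembryonic tissue had been dissected away. Against definitive-endoderm-like cells it had less Chrd, at 2.01, 0.486 and 0.905 against 8.19, 6.80 and 6.70 CPM (−2.71 ± 0.36, adjusted p = 4.90e-05). Bmp5 (−1.70 ± 0.29), Bmp4 (−1.18 ± 0.21), Fst (−0.51 ± 0.17) and Id1 (−0.41 ± 0.10) were lower too, and Smad6 (0.63 ± 0.20) and Bmp7 (0.56 ± 0.13) were higher. These were 7 of the 10 members tested, close to the background of 66.4% of 12283 genes. The Fst call was lost without embryo 3 (−0.31, adjusted p = 0.23) and the Id1 call without embryo 2 (−0.28, 0.063). Both were lost in 1 fit over all classes (Fst −0.41, adjusted p = 0.094, and Id1 −0.33, 0.069), and Fst also with classes assigned on thinned cells (−0.61, 0.083) and with barcodes nearly without mitochondrial UMIs kept (−0.43, 0.051). Bmp2 (0.12 ± 0.23), Bmper (−0.70 ± 0.37) and Nog (−0.52 ± 0.46) did not pass. Of 27 other pathway genes 5 were higher and 15 lower, near the background of 66.4% of 12283 genes. All 8 genes tested from the listed group of antagonists and binding proteins were lower. This group is not limited to secreted antagonists, and includes the decoy receptor Bambi. Cer1 was at 1.85 against 18.4 CPM (−3.33 ± 0.46) and Bambi at 17.0 against 78.9 CPM (−2.06 ± 0.18). Bmp6, a further ligand, was at 14.9 against 0.610 CPM (4.80 ± 0.23) and Smad9 at 16.5 against 2.07 CPM (3.18 ± 0.18). Id4 (−2.71 ± 0.24) and Id3 (−0.44 ± 0.08) were lower, and Msx2 did not pass (−0.09 ± 0.25, adjusted p = 0.77). The Id3 call was lost in 1 fit over all classes (−0.36, adjusted p = 0.064). That of Rgmb, 1 of the 8 genes of the group of antagonists and binding proteins, was lost there too (−0.56, 0.051). Rgmb was also lost with DESeq2 (−0.57, adjusted p = 0.14) and without embryo 1 (−0.34, 0.27) or 2 (−0.65, 0.12).

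**Figure D5:**
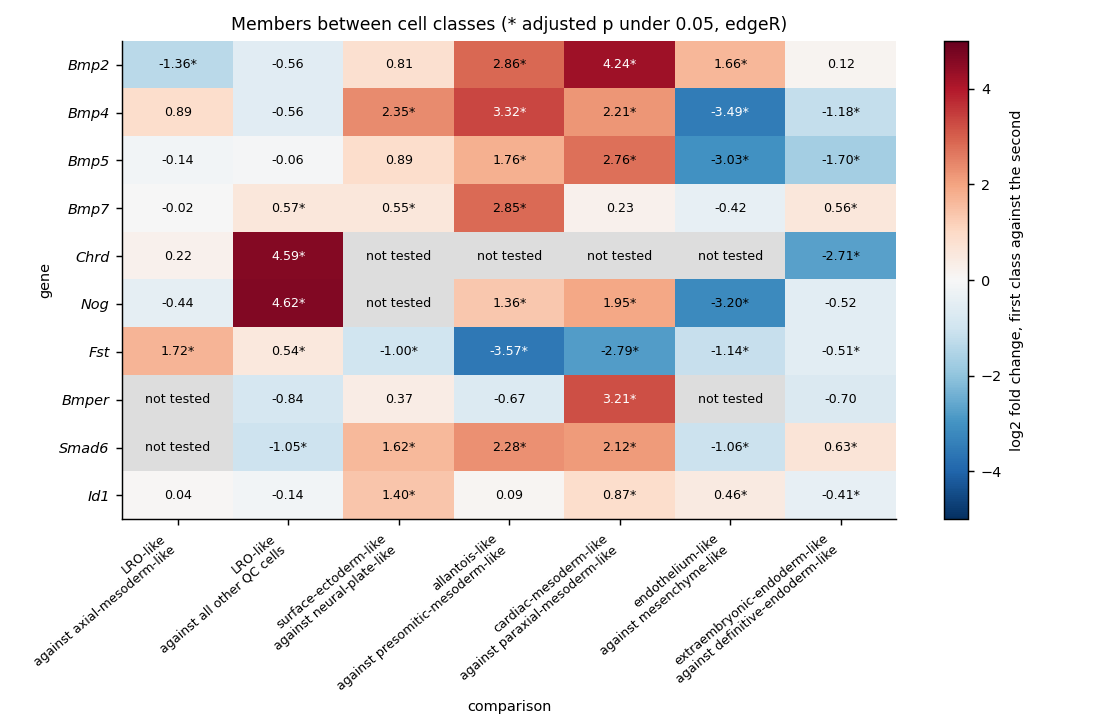
Log2 fold changes of the 10 members (rows) in the 7 comparisons (columns, first class against second), as colour and number. A star marks an adjusted p under 0.05 in edgeR and grey marks members with too few UMIs to be tested. Fst is lower where Bmp4 is higher in the surface ectoderm, allantois and cardiac columns, and both are lower in the endothelium and extraembryonic endoderm columns. Across the means of 14 classes, with erythroid-like cells left out, Bmp4 and Fst had a Pearson r of −0.17 (Spearman rho −0.11). Nog and Chrd have their largest values in the column of LRO-like against all other QC cells.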

How the data were processed

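Whole-embryo 3′ single-cell RNA was measured in 3 wildtype embryos, 1 library each (replicates 1 to 3). The authors made the deposited filtered matrices of UMI counts per gene and barcode with Cell Ranger 3.1.0 on mm10. They hold raw counts with no normalization, read here as deposited. The 10 members and the gene lists were chosen with earlier results of these data known.

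Barcodes were kept by the limits of the study's methods: at least 1500 genes, at most 8500, 7500 or 8500 genes for embryos 1 to 3, and at most 10% mitochondrial UMIs. A further 334, 160 and 79 barcodes with under 0.5% mitochondrial UMIs were removed. This left 5795, 7956 and 7844 cells with a median of 27635, 14615 and 16332.5 UMIs. Scrublet called 1, 3 and 1 doublets, which is too few to have worked, so the top 6% of its scores were left out as an alternative only.

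Each cell was scored by the mean z of its markers' log-normalized UMIs. It took the class with the highest score if that was at least 1 and led the next by 0.5, with UMIs of at least 3 markers. A sum needed at least 10 cells. UMIs were summed per class and embryo, converted to CPM and compared with edgeR 4.0.16 (TMM, filterByExpr, quasi-likelihood F test, 3 against 3 sums, R 4.3.3), with Benjamini-Hochberg adjusted p over all genes tested and a threshold of 0.05. The standard error was taken as the fold change over the root of F. The test was checked on simulated counts. Cells are not replicates, and p-values measure the spread between 3 embryos.

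Sums with the same number come from the same embryo, so the numbers pair the samples. Deviations of an embryo's 2 sums from the class means correlated at 0.020 to 0.13 between LRO-like and axial-mesoderm-like sums, 0.15 to 0.21 for LRO-like against other cells and 0.23 to 0.49 in the other 5 comparisons. The fit without the block was kept as the main one. Alternatives were DESeq2 1.42.0, no filter, a fit with the embryo as a block, leaving out embryos in turn, 1 fit over all classes, and other class assignments. Pathway genes were named if among the 4 largest changes past the threshold and the same way in every embryo, and Id3, Msx2, Bambi and Cer1 always. For Nog, Chrd, Bmp4 and Id1 the 3 nearest profiles were named, among genes at 20 CPM or more in at least 1 class.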

Additional observations from a re-analysis of the deposited data

How the results depend on the processing

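Member values were compared under alternatives in 673 cases: 618 kept their direction and side of the threshold, 27 lost a call, 16 gained one, and 12 changed sign. The only call among those 12 was Bmp2 for LRO-like against axial mesoderm, from −1.36 to 0.57 on the log2 scale with Gsc cells left out. The other 11 passed the threshold in neither fit. Leaving out each embryo in turn gave, for LRO-like against axial mesoderm, −0.17 to 0.47 for Chrd (0.22 as reported), −0.20 to 0.26 for Id1 (0.04) and −0.17 to 0.091 for Bmp7 (−0.02). It gave −0.12 to 0.040 for Bmp5 against all other cells (−0.06), and −0.21 to 0.41 for Bmp2 (0.12) and −1.11 to 0.12 for Nog (−0.52) in extraembryonic endoderm. Chrd was at −0.30 with Gsc cells left out, Bmp7 at 0.028 with the block and 0.048 with thinned assignment, and Bmp5 at 0.0042 without the top doublet scores. The class with the highest level was the same in 39 of 40 checks, the exception being Chrd, highest in axial-mesoderm-like cells when classes were assigned on thinned cells. The causes of the changes below were not tested. Leaving out an embryo also left fewer samples. Where classes were assigned on thinned cells, only the assignment used thinned counts, and the sums used all UMIs of the cells assigned. For surface ectoderm these were 53, 43 and 48 cells in embryos 1, 2 and 3, against 198, 160 and 170 in the main assignment.

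The embryo as a replicate block raised the count of called genes from 2964 to 4852 for LRO-like against all other cells, from 2115 to 3995 for surface ectoderm and from 1714 to 3201 for cardiac mesoderm. Beside the calls of Bmp2, Bmp4, Bmp5 and Bmp7 given above, the block changed no other call of a member.

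Leaving out each embryo in turn moved the count of called genes from 868 to 464–940 for LRO-like against axial mesoderm, from 2964 to 1294–2147 against all other cells, from 2115 to 1261–1368 for surface ectoderm, from 3697 to 2387–2881 for allantois, from 1714 to 1083–1221 for cardiac mesoderm and from 4017 to 2462–3711 for endothelium. The members called moved from 2 to 1–4 for LRO-like against axial mesoderm, and from 5 to 2–3 against all other cells. The lowest counts of genes came without embryo 2 in both LRO-like comparisons (the fewest members against all other cells, 2, without embryo 3), without embryo 1 for surface ectoderm, and without embryo 3 for allantois, cardiac mesoderm and endothelium.

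For LRO-like against axial mesoderm, 1424 genes were called in 1 fit over all classes and 553 with Gsc cells left out, and 4 members with classes assigned on thinned cells. For surface ectoderm that assignment called 1055 genes and 2 members, and 1 more required marker called 3 members. With DESeq2, the median log2 fold change of all genes moved from −0.06 to 0.27 for LRO-like against all other cells, with more genes tested, and Bmp2 passed as lower (−0.54, adjusted p = 0.044). In the highest class of each gene, Bmp7 was at 41.5 CPM with thinned assignment and 41.7 without the top 6% of doublet scores (39.8 as reported), and Nog at 181 with thinned assignment (145). After thinning to 5000 UMIs the share of cells with a UMI in that class was 47.1% for Bmp2, 56.3% for Bmp4, 21.4% for Bmp5, 17.1% for Bmp7, 17.8% for Chrd, 49.2% for Nog, 80.4% for Fst, 9.06% for Bmper, 12.0% for Smad6 and 72.9% for Id1. A single fit over all classes was not run for LRO-like against all other cells, since the second group contains the other classes. Sums of 20 to 55 axial-mesoderm-like cells limit the precision of low genes there.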
